A study of Homo sapiens with 18 samples.

Results

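The genes described here are 42 genes of the contractile apparatus and the actin cytoskeleton, taken from the 78724 genes of the deposited count table by exact match of the gene symbol. They cover 5 actins, 11 thin filament proteins, 6 myosin genes, 13 cross-linkers and adhesion proteins, 2 intermediate filament proteins, and 5 genes of transcription and stretch sensing. All 42 symbols were found, and 41 passed the filter on low counts. The exception was MYH11, the smooth muscle myosin heavy chain, with 2 to 9 counts per library.

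The cells were THESC, an established and immortalised line of human endometrial stromal cells, which form the connective tissue of the lining of the uterus. The 3 lines made with CRISPR guide RNAs and kept in blasticidin were one with a non-targeting guide and labelled wild type (NT cells), one with guides named U1U2 and labelled PGRA/B-equivalent (U1U2 cells), and one with a promoter guide and labelled PGRB-dominant (promoter cells). Per the series' design text, the last 2 lines carry an activated progesterone receptor gene, PGR, with different ratios of its isoforms PGRA and PGRB. After 24 h in medium with 2% serum, each line was held for 72 h in charcoal-stripped serum with vehicle (0.01% ethanol) or with the synthetic progestin medroxyprogesterone acetate (MPA) at 1 µM, which gives 6 groups of 3 libraries. Whether a line is a pool or a clone, and whether replicates were separate cultures, is not stated in the sources used here, so p-values may measure technical spread only.

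In smooth muscle and in contractile stromal cells, myosin pulls on actin filaments when its regulatory light chain is phosphorylated by myosin light chain kinase, and a myosin phosphatase reverses this. Tropomyosins, calponins, caldesmon and transgelin sit along the filament, while filamins, alpha-actinins and focal adhesion proteins tie filaments to each other and to the membrane. Many of these genes are known targets of serum response factor (SRF), which binds a DNA motif called the CArG box together with myocardin or the MRTF cofactors, and stretch-responsive genes such as ANKRD1 are also known targets of YAP with TEAD factors, which bind the MCAT motif. Progestins turn endometrial stromal cells into decidual cells, a change known to involve remodelling of their actin filaments.

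Total counts per library ran from 11932474 to 33418643, and the 42 genes took 2.24% to 2.71% of them. PGR, the activated gene, was measured at 120, 153 and 147 CPM (read counts scaled to one common library total, with TMM factors) in NT cells in vehicle, 674, 531 and 584 CPM in U1U2 cells and 433, 475 and 395 CPM in promoter cells, above all NT libraries in both activated lines. With MPA it was 95.1, 82.3 and 76.2 CPM in NT cells, 291, 264 and 226 CPM in U1U2 cells and 264, 303 and 280 CPM in promoter cells. Counts per gene cannot separate PGRA from PGRB, so the labelled isoform ratios were not checked, and PGR was not called different between the activated lines. Endometrial stromal marker genes summed to 10700 to 16000 CPM per library, although TCF21 had 0 counts in every library. Among 8 smooth muscle markers, 5 of them members, KCNMB1 had at most 1 count and DES 1 to 39 counts per library. Their sum was 126 to 231 CPM in vehicle and 141 to 253 CPM with MPA. Some markers of other cells moved with treatment: endothelial markers, almost all of it TEK with PECAM1 at no more than 4 counts, summed to 55.2 to 75.9 CPM in vehicle and 43 to 51 CPM with MPA. Pericyte markers summed to 278 to 342 CPM in vehicle and 206 to 275 CPM with MPA, leukocyte markers to 3.72 to 5.81 CPM and 1.97 to 2.78 CPM, and epithelial markers to 29.3 to 53.4 CPM and 20.9 to 41.8 CPM, which overlap. The part of these shifts in the results below was not tested. These are bulk samples, in which fewer cells of a type and less RNA per cell cannot be told apart.

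Measured per kilobase of exon, the level of the 42 genes spanned from 901 CPM per kb for ACTB, cytoplasmic beta-actin, to 0.0173 CPM per kb for MYH11. The actin-binding protein CALD1 (caldesmon) followed at 487, ACTG1 (cytoplasmic gamma-actin) at 458, VIM (vimentin) at 281 and CNN3 (calponin 3) at 176 CPM per kb. ACTA2, the smooth muscle alpha-actin that marks myofibroblasts, ranked eighth with 138 CPM per kb. ACTG2, the smooth muscle gamma-actin, had 20.5, ANKRD1 7.07, and the muscle genes MYOCD (myocardin), ACTC1 (cardiac actin) and DES (desmin) had 0.697, 0.608 and 0.244 CPM per kb. Of the other genes known from smooth muscle, TPM2 had 141, TAGLN 103, MYL9 82.9, LMOD1 27.2 and CNN1 15.1 CPM per kb, so genes of smooth muscle were spread over the whole range.

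**Figure D1:**
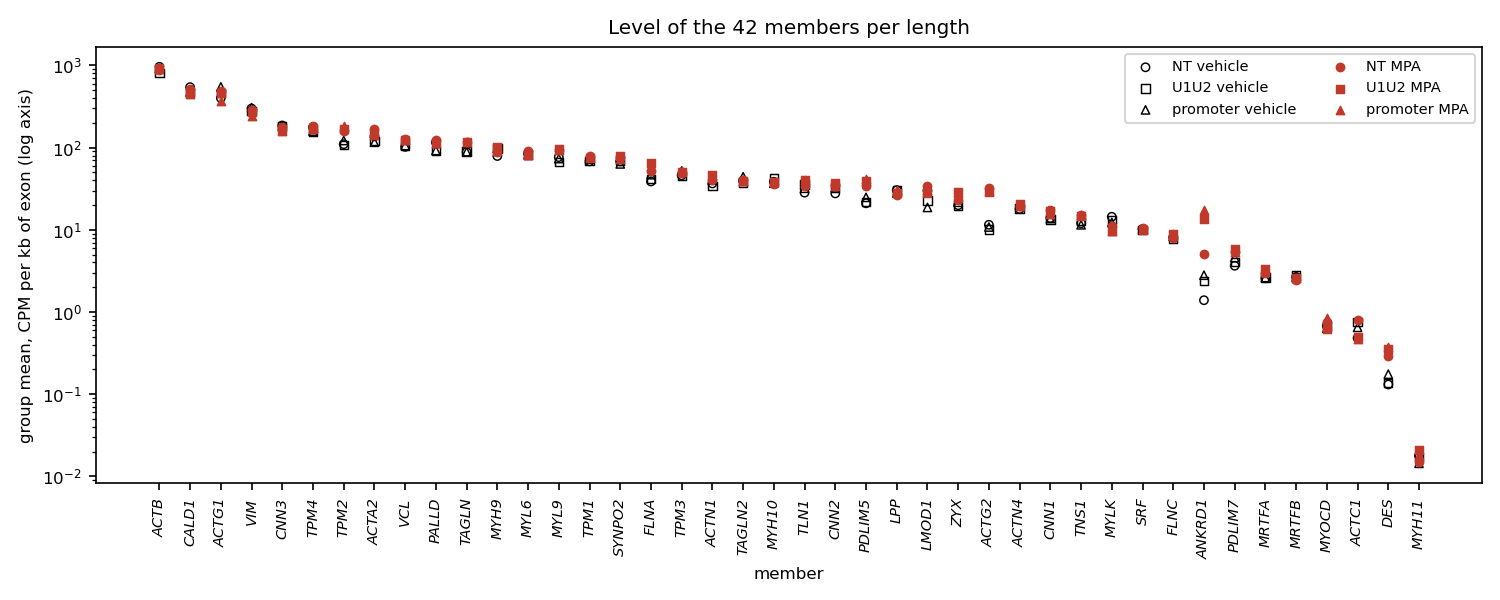
Group mean level of each of the 42 genes in CPM per kb of exon (vertical log axis), with open symbols for vehicle and filled symbols for MPA, and a symbol shape for each line. ACTB lies at the top at a mean of 901 and MYH11 at the bottom at 0.0173 CPM per kb, and the symbols of a gene spread most visibly for ANKRD1, ACTG2 and DES.

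The first question was how these genes answered to MPA in each line. In all 3 lines ANKRD1, ACTG2 and PDLIM5 rose and MYLK fell, and most other members did not pass the test. Calls rest on edgeR's quasi-likelihood test, 3 libraries against 3, with a Benjamini-Hochberg adjusted p under 0.05 over 15558 genes. NT cells had 3 of 41 members called higher and 1 lower, beside 2.44% of all tested genes called higher and 3.48% called lower. U1U2 cells had 6 higher and 1 lower, beside 5.44% and 6.22% of all genes. Promoter cells had 7 higher and 1 lower, beside 6.63% and 8.4% of all genes. The median log2 fold change of the members was 0.18, 0.18 and 0.16 in NT, U1U2 and promoter cells, against 0.02, 0.03 and 0 over all tested genes. The members were chosen with earlier results of these data known, so these shares and medians are a description.

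**Figure D2:**
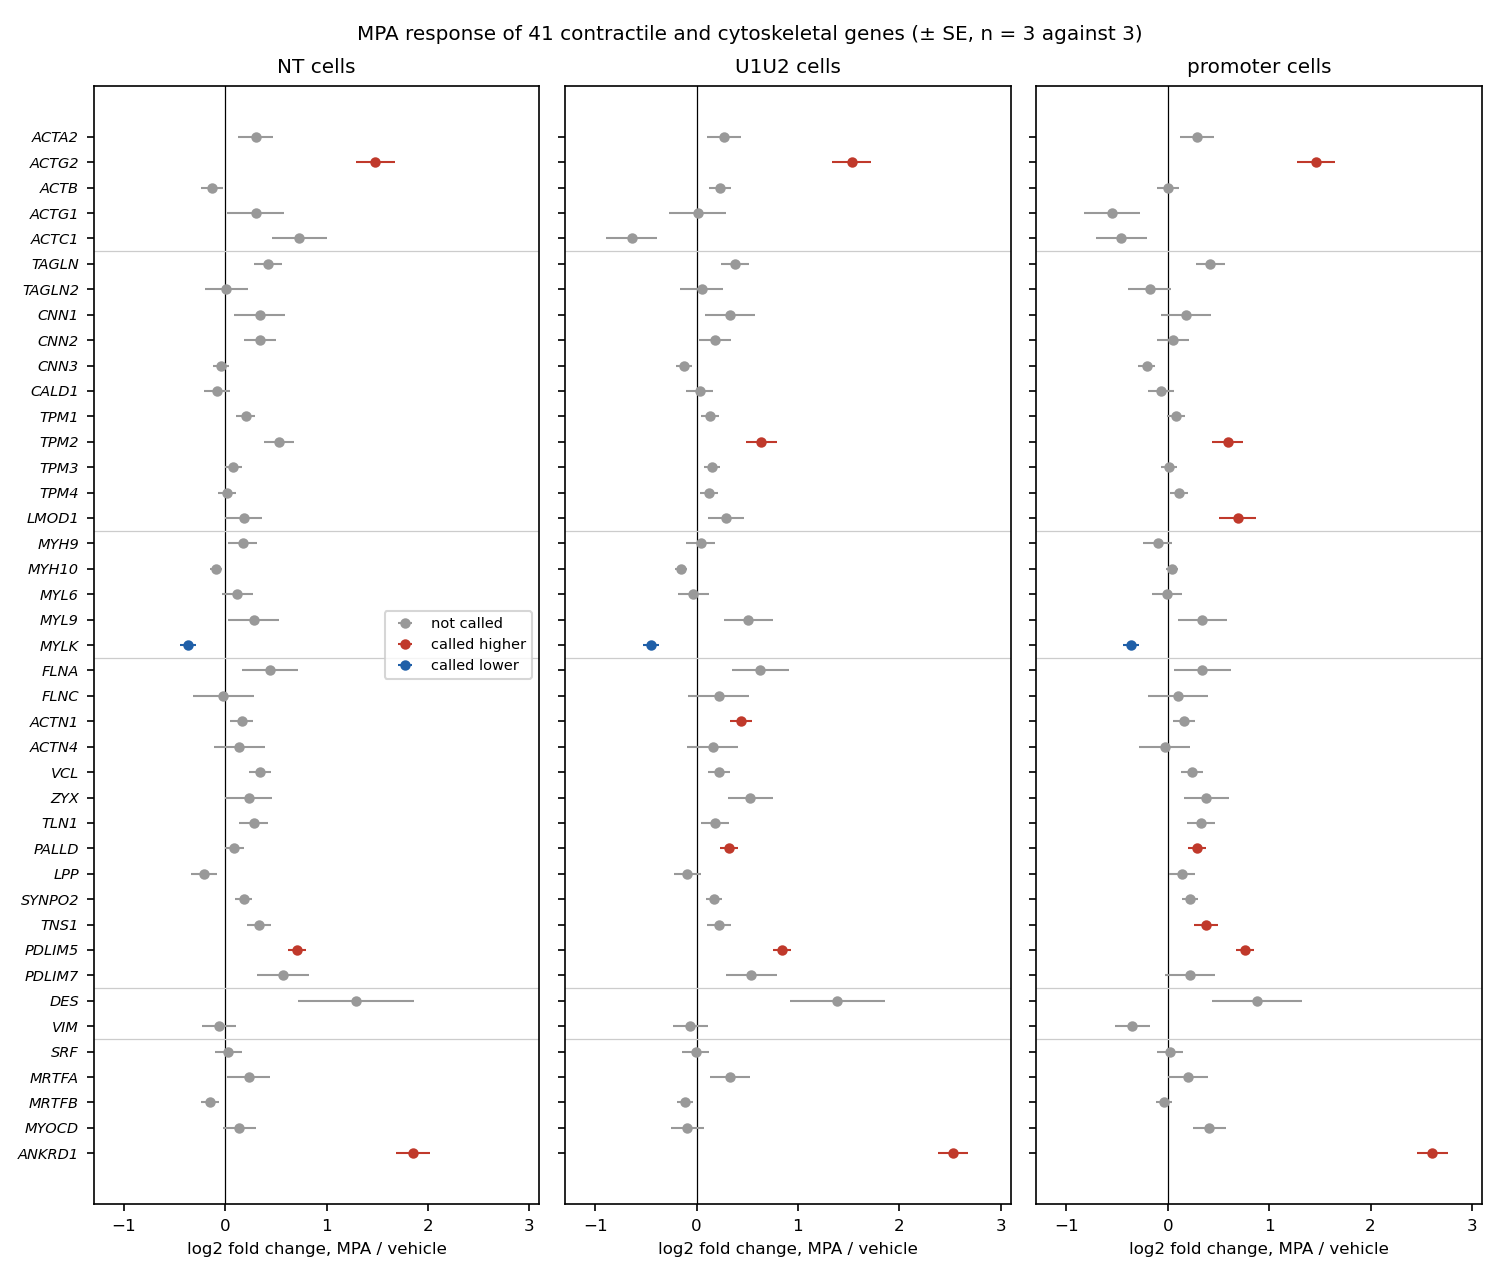
Log2 fold change of MPA over vehicle (horizontal axis) with its standard error for the 41 tested members in each line, grouped by role with grey lines between the roles. Red points were called higher and blue points lower; ANKRD1, at the foot, reaches 2.61 in promoter cells, and MYLK is the only member called lower.

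Of the actins, ACTG2 alone was called. It lies at chr2:73892314-73919865 on the plus strand of GRCh38 (GENCODE 29). In vehicle its level was 58.7, 39.6 and 32.8 CPM in NT cells, 33.4, 39.8 and 41.8 CPM in U1U2 cells, and 44.4, 44.1 and 34.5 CPM in promoter cells. With MPA it was 92.7, 127 and 144 CPM in NT cells, 115, 92.6 and 125 CPM in U1U2 cells, and 122, 116 and 100 CPM in promoter cells. Every MPA library lay above every vehicle library of its own line. For NT cells the log2 fold change was 1.48 ± 0.19 (SE; 2.78-fold, adjusted p = 5.83e-05, edgeR). For U1U2 cells it was 1.53 ± 0.19 (2.89-fold, adjusted p = 1.79e-05), and for promoter cells 1.46 ± 0.19 (2.75-fold, adjusted p = 2.3e-05). Between the lines this response differed by 0.05 (U1U2 minus NT, 95% interval −0.51 to 0.61), −0.02 (promoter minus NT, −0.58 to 0.55) and −0.07 (promoter minus U1U2, −0.63 to 0.49), so a difference of the size of the response itself lies outside each interval.

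The stretch before the RefSeq start of ACTG2 is shown because this was the only actin gene called, and it holds a pair of CArG boxes. It covers bases −250 to −61 from the start, chr2:73892758-73892947 on the plus strand of GRCh38.p14, 5′ to 3′, with the CArG matches in capitals.
ACTG2: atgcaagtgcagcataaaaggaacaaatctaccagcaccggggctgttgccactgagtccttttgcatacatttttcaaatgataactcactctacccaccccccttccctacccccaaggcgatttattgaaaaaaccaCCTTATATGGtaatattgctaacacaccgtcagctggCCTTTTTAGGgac
The matches begin 110 and 73 bases before the start. A match of letters is a description and does not show that SRF is bound.

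ACTA2, the other smooth muscle actin, was not called in any line. Vehicle libraries had 571, 338 and 315 CPM in NT cells, 339, 375 and 364 CPM in U1U2 cells and 364, 353 and 320 CPM in promoter cells. MPA libraries had 433, 525 and 544 CPM in NT cells, 397, 400 and 508 CPM in U1U2 cells and 476, 394 and 396 CPM in promoter cells. Its groups overlapped in NT cells, where vehicle replicate 1 held the highest level of all 18 libraries, and were separate in the other 2 lines. Log2 fold changes were 0.30, 0.27 and 0.29 (SE 0.17 each, edgeR adjusted p = 0.414, 0.367 and 0.312) in NT, U1U2 and promoter cells, and without NT vehicle replicate 1 the value in NT cells was 0.62 (adjusted p = 0.00565). The antisense gene ACTA2-AS1 was at 1.33 to 2.03 CPM in NT cells in vehicle and 3 to 3.1 CPM with MPA (0.87 ± 0.18, called higher, but not without NT vehicle replicate 2, adjusted p = 0.0616), with 0.12 ± 0.17 and 0.41 ± 0.17 in U1U2 and promoter cells, not called. Per 100 counts of ACTA2, ACTG2 had 10.8 ± 0.793 counts in NT cells in vehicle (SD, n = 3) and 24 ± 2.5 with MPA. The ratio was 10.6 ± 0.797 and 25.6 ± 3 in U1U2 cells, and 11.8 ± 0.908 and 26.8 ± 2.2 in promoter cells (SD, n = 3 each), with no overlap between vehicle and MPA in any line. NT vehicle replicate 1, which stood apart in the level of both genes, had 10.3 ACTG2 counts per 100 of ACTA2, beside 11.7 and 10.4 in its replicates.

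The cytoplasmic actins ACTB and ACTG1 and the cardiac actin ACTC1 were not called. ACTB changed by −0.13, 0.23 and 0 (SE 0.11 each) in NT, U1U2 and promoter cells. ACTG1 varied strongly between replicates, for example 1780, 2090 and 1040 CPM in promoter cells in vehicle, and its log2 fold changes were 0.30, 0.01 and −0.55 (SE 0.28 each). Despite this spread, edgeR with no filter on low counts called ACTG1 lower in promoter cells (−0.56, adjusted p = 1.75e-06). ACTC1 ranged from 1.79 to 4.89 CPM, with log2 fold changes of 0.73 ± 0.27, −0.64 ± 0.25 and −0.46 ± 0.25 for the NT, U1U2 and promoter lines, none called, although without U1U2 vehicle replicate 1 the U1U2 value was −0.80 (adjusted p = 0.0471). For ACTC1 the difference of response was −1.37 ± 0.36 between U1U2 and NT cells (adjusted p = 0.18 in edgeR), which DESeq2 called at an adjusted p of 0.0458. ACTB shares 4.84% of its 50-base stretches with other transcripts, mostly of the ACTBP2 pseudogene and the POTE genes, against 0.2% for ACTG2, so a part of its counts is uncertain. The same limit holds for other members, among them TPM4 (7.14%), TAGLN2 (5.84%) and ACTN1 (4.1%).

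Along the thin filament, the tropomyosin gene TPM2 was called higher in U1U2 and promoter cells, and the leiomodin gene LMOD1, whose product nucleates actin filaments, in promoter cells. TPM2 encodes beta-tropomyosin and had 459, 309 and 300 CPM in NT cells in vehicle and 470, 537 and 530 CPM with MPA. In U1U2 cells it went from 344, 373 and 333 CPM to 465, 518 and 650 CPM, and in promoter cells from 402, 378 and 407 CPM to 714, 541 and 530 CPM. All MPA libraries lay above the vehicle libraries of the same line, by the narrowest margin in NT cells because of vehicle replicate 1. In edgeR its log2 fold change was 0.53 ± 0.15 in NT cells (adjusted p = 0.0537), 0.64 ± 0.15 for the U1U2 line (adjusted p = 0.00966) and 0.59 ± 0.15 for the promoter line (adjusted p = 0.0132). The call was lost without U1U2 MPA replicate 3 (0.49, adjusted p = 0.06) or without promoter MPA replicate 1 (0.44, adjusted p = 0.0919). In NT cells TPM2 was called without vehicle replicate 1 (0.75, adjusted p = 0.00256). With all libraries kept, it was called there by DESeq2 (0.52, adjusted p = 0.018). It was also called in edgeR with RLE in place of TMM factors (0.52, adjusted p = 0.048) and with no filter on low counts (0.54, adjusted p = 2.41e-05).

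LMOD1 differed between lines before treatment. Vehicle libraries had 139, 115 and 104 CPM in NT cells, 103, 86.7 and 81.2 CPM in U1U2 cells and 67.8, 61 and 94.2 CPM in promoter cells, and with MPA the promoter cells had 130, 112 and 120 CPM. NT cells with MPA had 140, 150 and 113 CPM and U1U2 cells 79.5, 116 and 134 CPM, overlapping their vehicle groups. In promoter cells the rise was 0.69 ± 0.18 (1.62-fold, edgeR adjusted p = 0.0134), and in vehicle promoter cells were below NT cells by a log2 difference of −0.68 ± 0.18 (adjusted p = 0.0309). With MPA that difference was −0.16 ± 0.18 and was not called, and the difference of response between promoter and NT cells, 0.52 ± 0.26, was not called either (adjusted p = 0.352). Both LMOD1 calls were lost in some omissions, with adjusted p of 0.0565 to 0.0703 for the rise without promoter vehicle replicate 1 or 2 or promoter MPA replicate 1, and of 0.0786 to 0.158 for the line difference without NT vehicle replicate 1 or 2 or promoter vehicle replicate 1 or 2.

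TAGLN, transgelin, a calponin-family protein that stabilises actin bundles, had log2 fold changes of 0.42, 0.38 and 0.42 (SE 0.14 each) and missed the threshold in all lines, with edgeR adjusted p of 0.115, 0.11 and 0.0626. Its levels with MPA were 416, 499 and 475 CPM in NT cells, 380, 434 and 553 CPM in U1U2 cells and 519, 429 and 446 CPM in promoter cells. In vehicle they were 434, 284 and 321 CPM, 358, 368 and 327 CPM, and 366, 347 and 331 CPM in the same order. The groups were separate in U1U2 and promoter cells and overlapped in NT cells through vehicle replicate 1, without which the value in NT cells was 0.61 (adjusted p = 0.01). In promoter cells TAGLN was called by DESeq2 (0.42, adjusted p = 0.0325) and in edgeR when only the promoter groups were fitted (0.4, adjusted p = 0.0143). With no filter on low counts edgeR called it in NT, U1U2 and promoter cells (adjusted p = 0.00212, 0.0127 and 0.00359). That fit also called FLNA in U1U2 cells (0.62, adjusted p = 2.58e-07), where its groups overlapped. A call in it therefore does not require separate groups. Of the other thin filament genes, CNN1, the calponin of differentiated smooth muscle, changed by 0.34, 0.33 and 0.18 (SE 0.25 each). TAGLN2, CNN2, CNN3, CALD1, TPM1, TPM3 and TPM4 lay between −0.21 and 0.34 and were not called in any line. CNN2 was called in NT cells with no filter (0.36, edgeR adjusted p = 0.0454). CNN3 was called in promoter cells with total counts (−0.23, edgeR adjusted p = 0.00874).

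**Figure D3:**
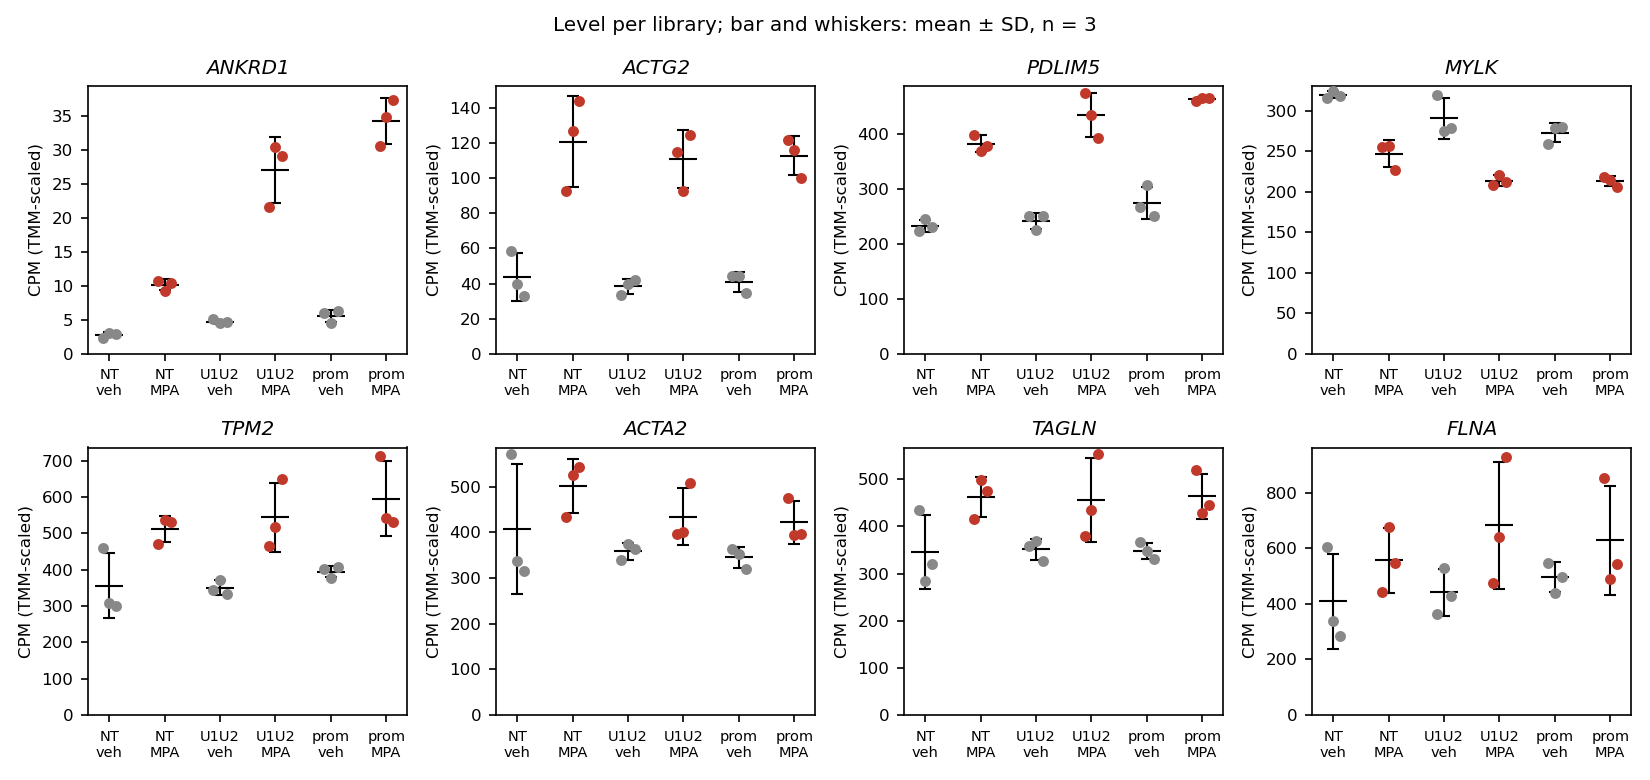
Level of 8 members in each library, in CPM on a linear axis from 0, by group; grey points are vehicle and red points MPA libraries, and bars with whiskers give the mean ± SD of 3 libraries. ANKRD1, ACTG2 and PDLIM5 are separate from vehicle in every line, MYLK lies lower with MPA, and NT vehicle replicate 1 is the high grey point for ACTG2, TPM2, ACTA2, TAGLN and FLNA.

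Of the myosin genes, MYLK was the only one called. It encodes myosin light chain kinase, which phosphorylates the regulatory light chain, and lies at chr3:123610049-123884331 on the minus strand of GRCh38. NT cells had 316, 325 and 319 CPM in vehicle and 255, 257 and 227 CPM with MPA. U1U2 cells had 320, 275 and 279 CPM in vehicle and 208, 221 and 212 CPM with MPA, and promoter cells had 259, 279 and 280 CPM in vehicle and 218, 215 and 206 CPM with MPA. All 9 MPA libraries lay below all 9 vehicle libraries. On the log2 scale MYLK fell by 0.37 ± 0.08 in NT cells (adjusted p = 0.00397), fell by 0.45 ± 0.08 under U1U2 guides (adjusted p = 0.000441) and fell by 0.36 ± 0.08 under the promoter guide (adjusted p = 0.00254, all edgeR). In NT cells the call ended when only the NT groups were fitted (adjusted p = 0.0705). The antisense gene MYLK-AS1, at 1.85 to 4.27 CPM, had values of −0.28 ± 0.18 in NT cells, not called, and −0.58 ± 0.17 in both other lines, called lower. Those calls were lost without U1U2 vehicle replicate 2 or 3, U1U2 MPA replicate 1 or 2, any promoter vehicle library, or promoter MPA replicate 1 or 3 (adjusted p of 0.054 to 0.126). The strand setting of the counting is not given in the sources used here, so reads of the antisense partner cannot be told apart from those of MYLK.

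A 30-base site with a CArG match in capitals is shown for MYLK because this was the only member called lower. It lies at chr3:123620623-123620652 on the minus strand of GRCh38.p14, before a RefSeq start inside the gene. On this strand the gene begins at base 123884331 and ends at base 123610049. The site is thus near the end of the gene and not before its first base. Which transcripts of MYLK the counts come from was not tested.
MYLK: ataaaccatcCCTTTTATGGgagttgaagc

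The nonmuscle myosin heavy chains and the light chains were not called. MYH9, nonmuscle myosin IIA, changed by 0.17, 0.04 and −0.10 (SE 0.14 each), and MYL6, the essential light chain, by 0.12, −0.03 and −0.01 (SE 0.15 each). The regulatory light chain gene MYL9 had 0.28 ± 0.25, 0.51 ± 0.24 and 0.34 ± 0.24 with a wide spread, for example 317, 174 and 157 CPM in NT cells in vehicle. With no filter edgeR called MYL9 in U1U2 and promoter cells (adjusted p = 0.000177 and 0.0467). MYH10, nonmuscle myosin IIB, was the steadiest member, between 320 and 410 CPM over the 18 libraries, and changed by −0.09, −0.15 and 0.04 (SE 0.06 each). DESeq2 called it lower in U1U2 cells (−0.15, adjusted p = 0.0398). MYH11 had from 0.0866 to 0.422 CPM and was left out of the tests.

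Among the cross-linkers and adhesion genes, PDLIM5 rose in every line. It encodes a PDZ and LIM domain protein that binds alpha-actinin, and lies at chr4:94451857-94668227 on the plus strand of GRCh38. NT cells had 223, 245 and 231 CPM in vehicle and 399, 370 and 379 CPM with MPA. U1U2 cells had 251, 225 and 251 CPM and then 475, 436 and 394 CPM, and promoter cells 268, 307 and 251 CPM and then 461, 467 and 466 CPM. All 9 MPA libraries lay above all 9 vehicle libraries. The log2 fold changes were 0.71, 0.84 and 0.76 (SE 0.09 each), with edgeR adjusted p of 2.84e-05, 1.84e-06 and 5.15e-06 in NT, U1U2 and promoter cells. Its relative PDLIM7 had 0.57 ± 0.26, 0.54 ± 0.25 and 0.22 ± 0.25 and was not called. With no filter edgeR called PDLIM7 in NT and U1U2 cells (adjusted p = 0.00533 and 0.00844).

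ACTN1, alpha-actinin 1, was called higher in U1U2 cells, from 376, 359 and 358 CPM to 457, 481 and 544 CPM (0.44 ± 0.11, edgeR adjusted p = 0.0129). The lowest of these MPA libraries lay above the highest vehicle library. In NT and promoter cells its log2 fold change was 0.16 ± 0.11 and not called, and the difference of response between U1U2 and NT cells was 0.28 ± 0.16 (adjusted p = 0.529). The U1U2 call was lost without U1U2 vehicle replicate 2 or 3 or MPA replicate 3, with adjusted p of 0.0501 to 0.0647.

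PALLD, palladin, a scaffold that binds alpha-actinin and actin bundles, differed between lines in vehicle, with 1160, 1150 and 1190 CPM in NT cells, 1020, 818 and 899 CPM in U1U2 cells and 869, 1020 and 914 CPM in promoter cells. With MPA the levels were 1300, 1200 and 1240 CPM, 1150, 1200 and 1060 CPM, and 1110, 1150 and 1160 CPM in the same order. NT cells were above both other lines in vehicle, and the 3 lines lay closer together with MPA. In edgeR PALLD rose by 0.32 ± 0.09 with U1U2 guides (adjusted p = 0.0229) and by 0.29 ± 0.09 with the promoter guide (adjusted p = 0.0341), beside 0.09 ± 0.09 in NT cells. The U1U2 call was lost in 5 of 13 alternatives, among them the omission of vehicle replicate 2 or 3 or MPA replicate 1 or 2 (adjusted p of 0.0694 to 0.144). The promoter call was lost in 9 of 13, among them the omission of vehicle replicate 1 or 3 or of any MPA library (0.0653 to 0.169), and the difference of response from NT cells was 0.23 ± 0.12 and 0.19 ± 0.12, not called.

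TNS1, tensin 1, which links integrins to actin, was called higher in promoter cells, where it had 204, 181 and 176 CPM in vehicle and 264, 233 and 234 CPM with MPA (0.38 ± 0.12, edgeR adjusted p = 0.0365). The groups were separate, but the call was lost in 7 of 13 alternatives, among them the omission of promoter vehicle replicate 2 or 3 or of any promoter MPA library (adjusted p of 0.0657 to 0.146). NT and U1U2 cells had 0.33 ± 0.12 and 0.22 ± 0.12, and without NT vehicle replicate 1 the NT value was 0.48 (adjusted p = 0.0138). VCL (vinculin), TLN1 (talin 1) and SYNPO2 (synaptopodin 2) had log2 fold changes between 0.17 and 0.34 in all lines. ZYX (zyxin) had values between 0.23 and 0.53, and none of these genes was called. Without U1U2 MPA replicate 1 the value of ZYX in U1U2 cells was 0.73 (adjusted p = 0.0294). With no filter edgeR called ZYX in U1U2 and promoter cells (adjusted p = 0.000298 and 0.031) and VCL in NT cells (adjusted p = 0.0204). With total counts it called VCL in NT cells (adjusted p = 0.0338) and SYNPO2 in promoter cells (adjusted p = 0.0285). FLNA, filamin A, which cross-links actin into networks, had 0.44, 0.63 and 0.34 with an SE of 0.28 each. Its U1U2 libraries with MPA stood at 476, 642 and 928 CPM, a spread that overlapped 363, 530 and 429 CPM in vehicle. FLNA was called in edgeR only with no filter on low counts, in NT, U1U2 and promoter cells (adjusted p = 0.000745, 2.58e-07 and 0.0315). FLNC, ACTN4 and LPP lay between −0.21 and 0.22 and were not called.

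The intermediate filament genes were not called. VIM changed by −0.06, −0.06 and −0.35 (SE 0.17 each), and with no filter edgeR called it lower in promoter cells (−0.36, adjusted p = 0.00755). DES, the muscle intermediate filament gene, had between 0.0628 and 1.33 CPM and log2 fold changes of 1.29 ± 0.57, 1.39 ± 0.47 and 0.88 ± 0.44, with adjusted p of 0.259, 0.0666 and 0.214 in edgeR. Without U1U2 MPA replicate 1 the U1U2 value was 1.70 (adjusted p = 0.016). With no filter on low counts DES was called in U1U2 cells (1.38, adjusted p = 0.007). These values rest on 1 to 39 counts per library.

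ANKRD1 had the largest response among the members in every line. It encodes an ankyrin repeat protein of the muscle nucleus and sarcomere that is known to be induced by stretch, and lies at chr10:90912096-90921276 on the minus strand of GRCh38. NT cells had 2.34, 3.05 and 2.88 CPM in vehicle and 10.7, 9.2 and 10.4 CPM with MPA. U1U2 cells had 5.02, 4.44 and 4.57 CPM in vehicle and 21.5, 30.4 and 29.1 CPM with MPA, and promoter cells had 5.91, 4.52 and 6.21 CPM in vehicle and 30.5, 34.8 and 37.3 CPM with MPA. The vehicle libraries of both activated lines lay above all NT vehicle libraries, and all MPA libraries lay above all vehicle libraries. In edgeR ANKRD1 rose by 1.85 ± 0.17 in NT cells (3.61-fold, adjusted p = 1.03e-06). The rise was 2.53 ± 0.15 for the U1U2 line (5.79-fold, adjusted p = 2.08e-09) and 2.61 ± 0.15 for the promoter line (6.09-fold, adjusted p = 9.65e-10).

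Stretches before the RefSeq start of ANKRD1 are shown because it responded most and was also the member that differed most between lines. The first covers bases −250 to −191, chr10:90921278-90921337, and the second bases −140 to −111, chr10:90921198-90921227, both on the minus strand of GRCh38.p14. Capitals mark the MCAT motif, CATTCC on either strand.
ANKRD1 first: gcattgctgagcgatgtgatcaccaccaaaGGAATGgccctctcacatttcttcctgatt
ANKRD1 second: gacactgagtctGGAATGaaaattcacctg
Both matches read GGAATG on the strand of the gene, and no CArG match is in its 300-base window.

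The transcription factors themselves were not called with MPA. SRF changed by 0.03, −0.01 and 0.02 (SE 0.13 each), and its cofactor genes MRTFA by 0.23 ± 0.21, 0.33 ± 0.20 and 0.20 ± 0.20 and MRTFB by −0.15 ± 0.09, −0.11 ± 0.08 and −0.04 ± 0.08. MYOCD, the smooth muscle cofactor, had 6, 5.15 and 5.73 CPM in promoter cells in vehicle and 8.14, 6.85 and 7.5 CPM with MPA. These groups were separate, with a log2 fold change of 0.41 ± 0.16 that was not called (edgeR adjusted p = 0.0995), beside 0.14 ± 0.16 and −0.09 ± 0.16 in NT and U1U2 cells.

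The second question was whether the lines differed in these genes. In vehicle, U1U2 cells were called different from NT cells in ANKRD1 alone, 1 higher and 0 lower of 41 members, beside 0.431% and 0.713% of all tested genes. Promoter cells had 1 member higher than NT cells, ANKRD1, and 2 lower, LMOD1 and PALLD, beside 3.07% and 3.68% of all genes. ANKRD1 was higher by 0.74 ± 0.17 in U1U2 cells (1.67-fold, adjusted p = 0.0472, edgeR) and by 1.01 ± 0.17 in promoter cells (2.01-fold, adjusted p = 0.00164). The first of these calls was lost in 9 of 13 alternatives, with adjusted p up to 0.202, among them the omission of any NT vehicle or U1U2 vehicle library. The second held in all 13. PALLD had a log2 difference from NT cells of −0.36 ± 0.09 in U1U2 cells, not called in edgeR (adjusted p = 0.0598). PALLD was called lower there by DESeq2 (−0.36, adjusted p = 0.00814). In edgeR it was called with total counts (−0.34, adjusted p = 0.0391) and without U1U2 vehicle replicate 1 (adjusted p = 0.0222). In promoter cells it was lower by −0.32 ± 0.09 (adjusted p = 0.0349), a call lost in 9 of 13 alternatives, including the omission of any NT vehicle library or of promoter vehicle replicate 1 or 3 (adjusted p of 0.0523 to 0.2). MYH9, with 0.32 ± 0.14 in promoter against NT cells, was called without NT vehicle replicate 1 (0.49, adjusted p = 0.0357).

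With MPA, ANKRD1 was the only member called different between a PGR-activated line and NT cells. It was called higher in U1U2 cells (1 of 41 higher and 0 lower, beside 0.784% and 0.938% of all genes) by 1.42 ± 0.15 (2.68-fold, edgeR adjusted p = 1.67e-05). In promoter cells (1 higher and 0 lower, beside 1.77% and 2.37%) it was higher by 1.76 ± 0.15 (3.39-fold, adjusted p = 4.47e-07). Both calls held in all 13 alternatives. ACTC1 had values of −0.69 ± 0.25 and −0.74 ± 0.25 against NT cells with MPA and was not called. In promoter against NT cells with MPA, edgeR called PDLIM5 higher with total counts (0.29, adjusted p = 0.0204). It called ACTG1 lower with no filter on low counts (−0.38, adjusted p = 0.0135).

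Between the promoter and U1U2 lines, edgeR called 0 members in vehicle, beside 0.527% of all genes called higher and 0.257% lower, and 0 with MPA, beside 0.193% and 0.135%. At an unadjusted p under 0.05 there were 2 members in vehicle, TPM3 and MYH10, and 2 with MPA, MYOCD and ANKRD1. DESeq2 called 1 in vehicle, MYH10 (edgeR value −0.21 ± 0.06), and 0 with MPA, beside 265 of 14351 and 88 of 14954 genes that it tested. The 95% interval of a member's difference had a median half-width of 0.32 in vehicle and 0.31 with MPA on the log2 scale, and the intervals themselves were from 0.27 to 2.12 wide in vehicle and from 0.27 to 1.75 with MPA.

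The third question was whether the response to MPA itself differed between lines. For the 41 members edgeR called 0 differences of response between U1U2 and NT cells, beside 0.219% of all genes called in either direction, 0 between promoter and NT cells, beside 1.56%, and 0 between promoter and U1U2 cells, beside 0.0129%. At an unadjusted p under 0.05 there were 3 (ACTB, ACTC1 and ANKRD1), 3 (ACTG1, ACTC1 and ANKRD1) and 2 (MYH10 and MYOCD). DESeq2 called 1, 0 and 0, the 1 being ACTC1, beside 123 of 12843, 458 of 13145 and 58 of 12240 genes that it tested. For ANKRD1 the response was larger than in NT cells by 0.68 in U1U2 cells (95% interval 0.20 to 1.16, adjusted p = 0.385) and by 0.75 in promoter cells (0.28 to 1.23, adjusted p = 0.119), neither called in edgeR. MYLK responses differed by −0.07 (−0.29 to 0.15) and 0.02 (−0.21 to 0.24), and PDLIM5 responses by 0.13 (−0.13 to 0.39) and 0.04 (−0.22 to 0.30), in U1U2 and promoter cells against NT cells. These differences share the NT, U1U2 or promoter libraries and are not independent of each other.

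The members also varied together inside groups. NT vehicle replicate 1, the shallowest library with 11932474 counts, was the highest of its 3 replicates in 32 of 41 members. The median deviation of the members from the mean of the other replicates was 0.42 log2 units in this library. Over all tested genes it was 0, and 42.7% of those genes were highest in this library. Promoter MPA replicate 1 was highest in 29 members (median 0.17) and 40.8% of all tested genes, and U1U2 MPA replicate 3 in 24 members (median 0.23) and 39.2%. Within groups, the SD of log2 CPM had a median of 0.19 over the members, beside 0.21 over all tested genes and 0.13 over those whose mean log2 CPM was 5 or more. It was largest for DES (0.71), FLNC (0.43), ACTG1 (0.40) and FLNA (0.39) and smallest for MYH10 (0.04). The mitochondrial share of counts in NT vehicle replicate 1 was 3.02%, beside 2.51% and 2.59% in its replicates; its part in these levels was not tested. Without that library, 8 members were called with MPA in NT cells, 7 higher and 1 lower, in place of 4. Over all tested genes, 986 were then called there in place of 922. Without promoter MPA replicate 1 the count in promoter cells was 4 in place of 8, beside 1748 of all tested genes in place of 2339. Leaving out any other single promoter library also lowered the count, and the range over these omissions was 4 to 6 members.

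**Figure D4:**
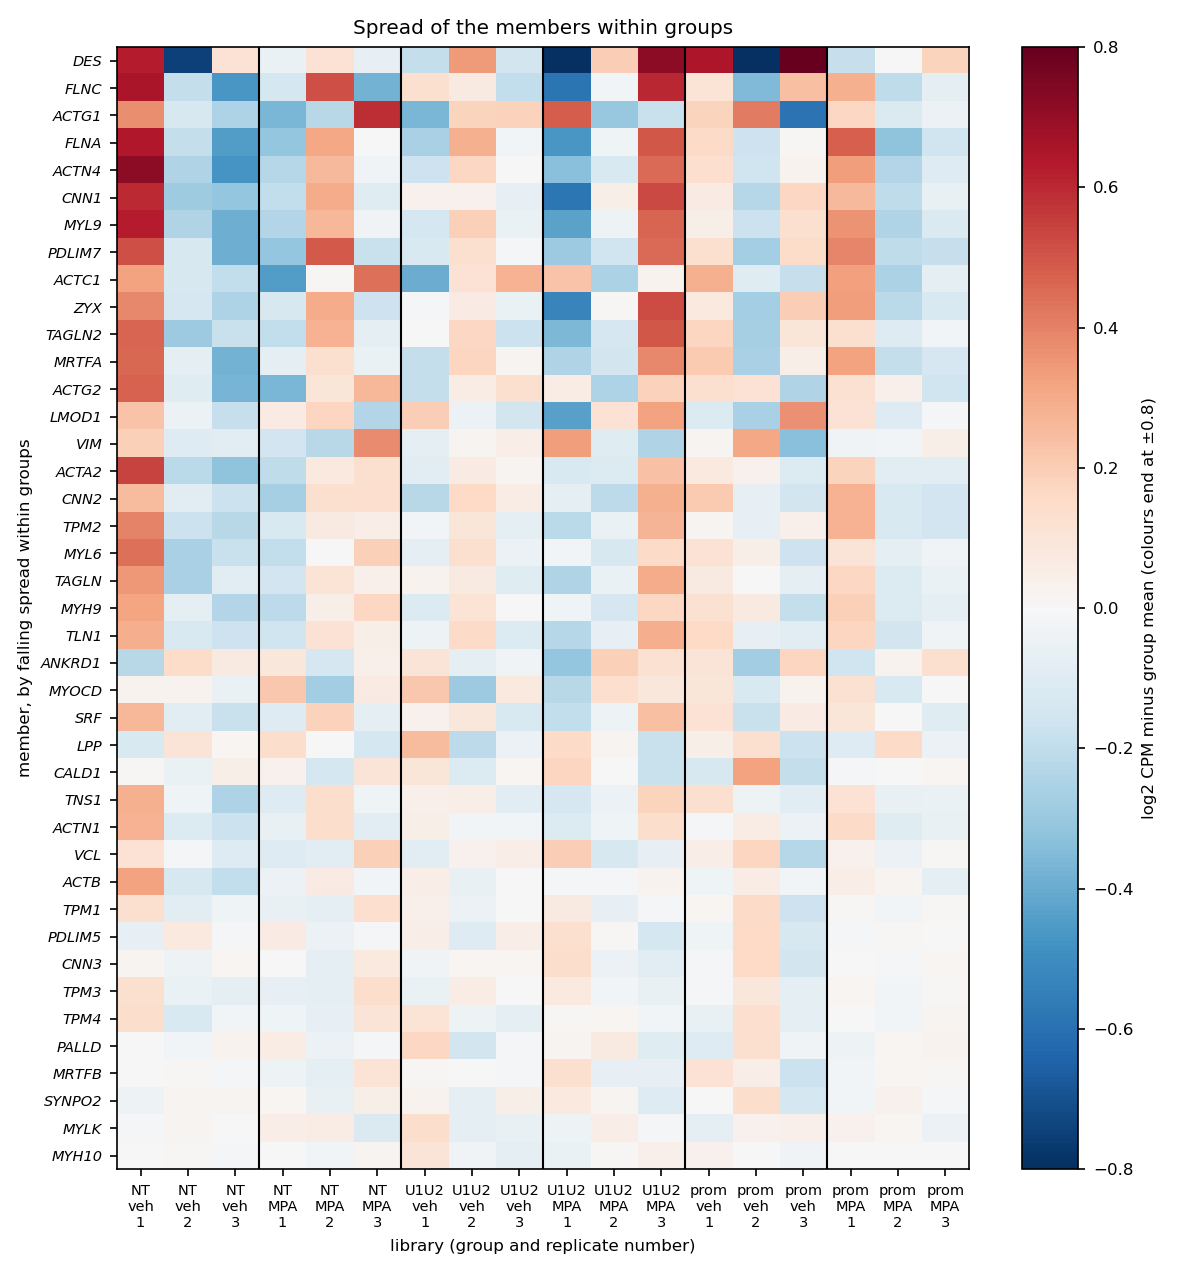
Deviation of each library from its group mean in log2 CPM (colour, red above and blue below) for the 41 tested members, ordered by falling spread within groups, with black lines between groups of 3 libraries. The column of NT vehicle replicate 1 is red for most genes, being the highest replicate in 32 of 41 members, and the lowest rows, to MYH10, are almost white.

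RefSeq promoter windows on GRCh38.p14, from 250 bases before to 50 bases after each start, were matched by symbol for 36 of the 42 members, 73 windows in all. The CArG box was searched on both strands as its usual 10-base consensus. It was in 10 members and 13.7% of their windows, against 1.29% of 35116 windows of all genes. These members were ACTC1, ACTG1, ACTG2, ACTN1, CNN2, FLNA, LPP, MYLK, SRF and TPM4. For MYLK the match is in the window of the start near the end of the gene. The members were picked as contractile genes, many of them known SRF targets, so the difference in share is a description with no test. The MCAT motif was in 17 members and 27.4% of their windows, against 14.0% of all windows.

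Genes that act with the members were taken from 4 lists of 142 genes, 128 of them tested: control of myosin phosphorylation, actin filament turnover, focal adhesions, and known targets of SRF and YAP. With MPA, 5 were called higher and 6 lower in NT cells, beside 2.44% and 3.48% of all tested genes. In U1U2 cells 19 and 8 were called, beside 5.44% and 6.22%, and in promoter cells 16 and 11, beside 6.63% and 8.4%. The called share of the 128 genes was 8.59%, 21.1% and 21.1%. Their median log2 fold changes were 0.05, 0.08 and 0.02, against 0.02, 0.03 and 0 over all tested genes. The lists were chosen with earlier results of these data known. Their called shares, here and for each list below, are therefore a description and no test of the lists.

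In the list on myosin phosphorylation, 1 of 28 tested genes was called higher and 1 lower in NT cells, and 4 higher and 2 lower in each of the other lines, which is 7.14%, 21.4% and 21.4% of the list beside the same shares of all tested genes (2.44% higher and 3.48% lower, 5.44% and 6.22%, 6.63% and 8.4%). PPP1R14A, an inhibitor of myosin phosphatase also called CPI-17, had 0.335, 0.191 and 0.131 CPM in NT cells in vehicle and 0.953, 1.55 and 1.86 CPM with MPA. It rose by 2.75 ± 0.45, 1.86 ± 0.33 and 1.61 ± 0.33 in NT, U1U2 and promoter cells (edgeR adjusted p = 0.000615, 0.000722 and 0.00206), at only 2 to 63 counts per library. PPP1R12B, a myosin-targeting subunit of that phosphatase, fell from 86.4, 106 and 94.9 CPM to 78.1, 70.9 and 78.2 CPM in NT cells, by 0.34 ± 0.09 on the log2 scale (adjusted p = 0.0382). That call was lost in 8 of 13 alternatives, among them the omission of NT vehicle replicate 2 or 3 or of any NT MPA library (adjusted p of 0.0561 to 0.232). The U1U2 cells had a fall of −0.74 ± 0.09 (adjusted p = 1.98e-05) and the promoter cells of −0.63 ± 0.09 (adjusted p = 0.000103). PPP1CB, the catalytic subunit of the same phosphatase, was called higher with U1U2 guides (0.95 ± 0.19, adjusted p = 0.0019) and with the promoter guide (0.65 ± 0.19, adjusted p = 0.0219), beside 0.40 ± 0.19 in NT cells, not called. Its promoter call was lost without promoter vehicle replicate 1 or 3 or any promoter MPA library (adjusted p of 0.0526 to 0.131). MYPN, a muscle relative of palladin that does not itself act on myosin phosphorylation, rose by 1.17 ± 0.18 and 1.47 ± 0.18 in U1U2 and promoter cells (adjusted p = 0.000219 and 8.63e-06). RND3, an atypical small GTPase, fell by 0.63 ± 0.14 and 0.76 ± 0.14 there (adjusted p = 0.00447 and 0.000677).

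In the actin turnover list, 0 of 33 genes were called higher and 2 lower in NT cells, 1 and 1 in U1U2 cells and 1 and 4 in promoter cells. That is 6.06%, 6.06% and 15.2% of the list, below the share of all tested genes in U1U2 cells (5.44% higher and 6.22% lower) and near it in NT cells (2.44% and 3.48%) and promoter cells (6.63% and 8.4%). FHOD3, a formin of muscle cells, fell in all lines, by 1.09 ± 0.18, 0.92 ± 0.17 and 1.19 ± 0.17 (edgeR adjusted p = 0.000605, 0.00119 and 6.2e-05). Its level went from 7.2, 6.38 and 6.49 CPM to 3.46, 3.32 and 2.48 CPM in NT cells, with no overlap. DIAPH2, another formin, was called higher in U1U2 and promoter cells (0.39 ± 0.10 and 0.55 ± 0.10), the first call being lost without U1U2 vehicle replicate 2 or 3 or U1U2 MPA replicate 2 (adjusted p of 0.0664 to 0.137). The other gene called lower in NT cells was TMOD1, a tropomodulin that caps filament ends, with 0.586, 0.619 and 0.524 CPM in vehicle and 0.0433, 0.126 and 0.344 CPM with MPA, or 1 to 13 counts per library. That call was lost with DESeq2 (adjusted p = 0.064) and without replicate 2 of NT vehicle or replicate 1 or 2 of NT MPA (adjusted p of 0.0709 to 0.101).

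The focal adhesion list had 3 of 36 genes called higher and 1 lower in NT cells, 9 and 2 in U1U2 cells, and 9 and 3 in promoter cells. That is 11.1%, 30.6% and 33.3% of the list, beside 2.44% of all tested genes higher and 3.48% lower, 5.44% and 6.22%, and 6.63% and 8.4% in the same lines. ITGA1, the collagen-binding integrin alpha 1, rose in all lines, by 0.76 ± 0.10, 1.01 ± 0.10 and 1.15 ± 0.10 (edgeR adjusted p = 8.68e-05, 1.72e-06 and 2.32e-07), and ITGA5, the fibronectin-binding integrin alpha 5, by 0.98 ± 0.18, 1.06 ± 0.18 and 1.02 ± 0.18. CSRP2, a LIM protein of smooth muscle, fell in all lines, with log2 values of −0.32, −0.82 and −0.74 (SE 0.08 each). The NT call was lost in 8 of 13 alternatives, among them the omission of any NT vehicle library or of NT MPA replicate 1 or 2 (adjusted p of 0.0535 to 0.172).

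Of the SRF and YAP target genes, 1 of 31 was called higher and 2 lower in NT cells, 5 and 3 in U1U2 cells, and 2 and 2 in promoter cells. That is 9.68%, 25.8% and 12.9% of the list, and in promoter cells it lies near the share of all tested genes (6.63% higher and 8.4% lower), beside 2.44% and 3.48% in NT cells and 5.44% and 6.22% in U1U2 cells. FOS, an immediate early gene, rose by 2.61 ± 0.26 and 2.10 ± 0.27 in U1U2 and promoter cells (edgeR adjusted p = 1.44e-06 and 1.83e-05) and was 0.303, 0.537 and 0.275 CPM with MPA in NT cells against 0.335, 0.572 and 0.459 CPM in vehicle. The genes called lower in NT cells were F3 (−0.31 ± 0.08), a call lost in 6 of 13 alternatives, and TGFB2 (−0.90 ± 0.18), lost when only the NT groups were fitted (adjusted p = 0.0644). For F3 these included the omission of replicate 2 or 3 of NT vehicle or of NT MPA (adjusted p of 0.0603 to 0.119). Most genes of this list, 28, 23 and 27 of 31 in the 3 lines, did not pass the test.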

How the data were processed

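The authors deposited whole-number read counts per gene and, per the file headers, a table of log2 CPM values (10402 genes, 39 of the members); the deposited log2 values lay within 5e-09 of edgeR's log2 CPM with a prior count of 2 and entered no test. Per the submitters' processing notes, the authors worked with STAR 2.6.0c, edgeR 4.2.2, R 4.4.1 and hg38; the counter, its strand setting and the annotation are not given in the sources used here. Libraries were stranded mRNA libraries, per the labels' protocols, and the labels give all 18 libraries 1 batch.

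Here the tests used R 4.3.3 and edgeR 4.0.16: filterByExpr with a minimum count of 10 (15558 genes), TMM factors, and a quasi-likelihood fit with 1 term per group over all 18 libraries (common biological coefficient of variation 0.129). P-values were adjusted over all 15558 genes, called at 0.05; intervals are 95%. Levels are CPM on TMM-scaled library sizes. Alternatives were RLE factors, total counts, no filter, at least 1 CPM in 3 libraries, DESeq2 1.42.0, a replicate block, a fit to the compared groups only, and leaving out each library. On data simulated for MPA against vehicle in promoter cells (15558 genes), 99 of 100 genes changed by 1 log2 unit and 32 of 100 changed by 0.5 were recovered. Of the unchanged genes, 7 were called. The simulation changed only genes of higher counts, gave all genes the same spread and held no shift shared by genes within a library. It may therefore overstate recovery for the noisier members.

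Replicates differed by more than sampling noise (chi-square per degree of freedom 1.9 to 33.5). Exon lengths and positions are from GENCODE 29 on GRCh38. Any member, and any gene of the lists, could be named; some results are not reported here. The members and lists were chosen with earlier results of these data known.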

Additional observations from a re-analysis of the deposited data

Results flagged for a closer look

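A response to MPA that differed between lines by an interaction test (edgeR, adjusted over all 15558 genes) was found for no member. Of the genes in the accompanying lists, those with such a difference that are given here are FOS, F3 and TGFB2.

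FOS responded more by 2.86 ± 0.48 in U1U2 than in NT cells (adjusted p = 0.0156) and by 2.35 ± 0.48 in promoter than in NT cells (adjusted p = 0.015), at under 4 CPM in every library. The first call was lost without NT vehicle replicate 2 or 3 and when only the compared groups were fitted, the second without NT vehicle replicate 2 or promoter vehicle replicate 1, with adjusted p up to 0.149 and 0.124.

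F3, tissue factor, differed by 0.54 ± 0.11 between promoter and NT cells (adjusted p = 0.0148), with 224, 201 and 203 CPM in NT cells and 361, 372 and 387 CPM in promoter cells with MPA. The call was lost when replicate 3 of NT vehicle, NT MPA or promoter MPA, or promoter vehicle replicate 1, was left out (adjusted p up to 0.0661). TGFB2 differed by 1.13 ± 0.24 (adjusted p = 0.0215), with 2.86, 2.91 and 2 CPM in NT cells and 7.49, 7.95 and 7.36 CPM in promoter cells with MPA. That call was lost in 7 of 19 alternatives (adjusted p up to 0.0809): with total counts, and without replicate 2 or 3 of NT vehicle, replicate 3 of NT MPA, promoter vehicle replicate 1, or promoter MPA replicate 1 or 2.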

How the results depend on the processing

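The calls of ANKRD1, ACTG2 and PDLIM5 with MPA were kept in 13 of 13 alternatives in each line, and no called member changed sign. Without a filter, 40165 genes were tested and the members called with MPA were 10, 13 and 13 in NT, U1U2 and promoter cells in place of 4, 7 and 8. Over all genes the calls were then 1026, 1943 and 2500 in place of 922, 1814 and 2339. In vehicle U1U2 against NT cells had 3 members (808 of all genes in place of 178). Promoter against NT cells with MPA had 2 (715 in place of 645). The differences of response from NT cells had 1 in U1U2 cells (281 in place of 34) and 2 in promoter cells (758 in place of 242). DESeq2 called 2 for U1U2 against NT cells in vehicle, 1 for promoter against U1U2 cells in vehicle and 1 for the response in U1U2 minus NT cells. Its calls over all genes were 473, 265 and 123, in place of 178, 122 and 34 in edgeR. Total counts gave 2 for promoter against NT cells with MPA, beside 635 of all genes in place of 645. Fitting only the compared groups gave 0 for U1U2 and 1 for promoter against NT cells in vehicle. All-gene calls there were 4 in place of 178 and 461 in place of 1050. Leaving out each library in turn gave 4 to 8 members with MPA in NT cells, 5 to 8 in U1U2 cells and 4 to 6 in promoter cells. All-gene calls ran from 628 to 986, 1279 to 1969 and 1584 to 2382 in these fits. In vehicle it gave 0 to 1 members for U1U2 and 1 to 2 for promoter against NT cells. The all-gene calls there ran from 23 to 649 and from 461 to 1353. An arm left with 2 libraries has less power. The cause of these changes was not tested.

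Same-numbered libraries showed no steady shared deviation (correlations from −0.47 to 0.2, 5 of 27 over 0.1). With 3 libraries a group, these correlations cannot exclude that the numbers pair the samples, which is not known. With the replicate block, 0 members were called for U1U2 and 1 for promoter against NT cells in vehicle, in place of 1 and 3. Over all genes the calls were 62 and 774 in place of 178 and 1050. No other count of member calls moved by over 1.5 times with the block.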
